A study of Mus musculus with 9 samples.

Results

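The sarcomeric myosin heavy chains compared here are Myh3, Myh8, Myh7, Myh2, Myh1 and Myh4, and they were chosen by name: every probe set whose only gene symbol in the array's annotation is one of these 6 was taken. All 6 genes, of 12393 named genes on the array, were measured, with 8 probe sets of the 22626 that are not controls. Myh1 had 3 probe sets (1427520_a_at, 1427868_x_at and 1452465_at) and the other genes 1 each (Myh3 1427115_at, Myh8 1426650_at, Myh7 1448553_at, Myh2 1425153_at and Myh4 1427026_at), and 2 further probe sets that the annotation gives to both Myh7 and Myh6 were not used. The series holds total RNA profiles of 6 alveolar rhabdomyosarcomas of mice and of 3 skeletal muscles labelled wild-type, with 1 Affymetrix array per sample. Alveolar rhabdomyosarcoma is a soft-tissue cancer whose cells express genes of the skeletal muscle lineage. The labels give the tumours no genotype, name no muscle and give neither group a strain, age or treatment, and they do not say whether the samples came from separate animals, so the p-values cover only the spread between these samples, and that may in part be technical. The comparison asks how the set of myosin motors transcribed in the tumours differs from that of skeletal muscle.

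Muscle myosin is built of heavy and light chains, and the heavy chain carries the motor that splits ATP and pulls on actin. Mammalian skeletal muscle has a family of heavy chain genes that follow each other in development and divide the fibre types among them. Myh3 encodes the embryonic chain and Myh8 the perinatal (neonatal) chain, both of which give way to adult chains after birth and return in regenerating fibres. Myh7 encodes the slow (type I, beta cardiac) chain, and Myh2, Myh1 and Myh4 encode the adult fast chains of type IIA, IIX and IIB fibres, of which IIB is the fastest.

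The genes of the embryonic, fast and perinatal chains lie next to each other on mouse chromosome 11, in the order Myh3, Myh2, Myh1, Myh4, Myh8, with the antisense RNA gene Myhas between Myh1 and Myh4. Myh7 lies beside Myh6 on chromosome 14. RefSeq promoter windows of the GRCm38.p6 assembly, the 250 bases before the start of each gene, were found for 6 of 6 genes. The windows of the 3 adult fast genes and of Myh8 share a run of 14 bases, TTCTAATTATATCC, which was found by comparing these windows with each other. Among 32851 windows of 27025 genes, the run is in 4 (0.0122%, both strands searched), and those 4 belong to Myh1, Myh2, Myh4 and Myh8. Counted from the start of the gene, it begins at -125 in Myh2, -160 in Myh1, -158 in Myh4 and -54 in Myh8. The stretches around it are shown because the shared run is a likeness of these genes that the array values did not enter. All lie on the plus strand, and capitals mark the shared run.
Myh2, chr11:67170851-67170924: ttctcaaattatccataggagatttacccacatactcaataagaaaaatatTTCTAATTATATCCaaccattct
Myh1, chr11:67199883-67199964: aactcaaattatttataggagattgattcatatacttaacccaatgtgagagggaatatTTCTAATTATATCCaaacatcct
Myh4, chr11:67237622-67237676: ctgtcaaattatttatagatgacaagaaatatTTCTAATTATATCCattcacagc
Myh8, chr11:67277017-67277092: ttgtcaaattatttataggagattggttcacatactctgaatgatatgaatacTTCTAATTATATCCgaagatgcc
The letters of the run are not in the windows of Myh3 and Myh7.

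The letters TATAAA, the core of a TATA box, are in 12.4% of all windows on either strand and in 7.59% on the gene's own strand. On that strand they begin at -29 in Myh3, -32 in Myh1 and -31 in Myh4, which has them again at -213. The last 100 bases before the start of these genes are shown, since they are the likeness that the embryonic gene shares with 2 of the fast genes, with TATAAA in capitals.
Myh3, chr11:67078200-67078299: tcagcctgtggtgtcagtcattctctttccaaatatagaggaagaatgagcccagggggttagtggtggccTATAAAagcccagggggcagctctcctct
Myh1, chr11:67200002-67200101: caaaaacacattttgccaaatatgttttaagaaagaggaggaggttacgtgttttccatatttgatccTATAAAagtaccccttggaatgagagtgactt
Myh4, chr11:67237712-67237811: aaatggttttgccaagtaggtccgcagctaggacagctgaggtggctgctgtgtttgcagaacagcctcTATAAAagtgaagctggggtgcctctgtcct
The MEF2 motif, that of a factor family active in muscle, is in 2.92% of all windows on either strand, among them those of Myh1, Myh4 and Myh8. The CArG motif, that of serum response factor, is in 1.47% of all windows, among them that of Myh4. These are letter matches and were not tested as binding sites.

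The values are MAS5 signals, the linear brightness of a probe set in arbitrary units, scaled to the same trimmed mean on every array. The trimmed mean as deposited was 500 within 1 unit on 7 arrays, 294.3 on muscle 1 and 140.9 on muscle 3, so those 2 were multiplied by 1.6995 and 3.5493. The median signal of an array lay between 144.4 and 275.8 after scaling. Signals far below that can be background. Levels of different probe sets are not on 1 scale, so each probe set, sum or difference of probe sets is compared between arrays. A sum over several genes is weighted towards its brightest probe sets. As a measure of RNA quality, the Gapdh signal at the 3' end over that at the 5' end was 1.93 to 9.39 on the tumour arrays and 1.68, 57.17 and 33.0 on muscles 1 to 3. The same ratio of Actb did not set the muscles apart on the high side, at 3.35 to 6.78 on the tumour arrays and 1.87, 4.06 and 4.35 on the muscles. Of 12 genes of adult muscle fibres, 11 were called lower in tumours and 0 higher, and their summed signal was 2668 to 81329 in tumours and 224860 to 299751 in muscles. Among 12393 genes, each by its brightest probe set, 8.77% were called lower and 8.4% higher. Of 6 cardiac muscle genes 0 were called, with sums of 523 to 6637 in tumours and 689 to 862 in muscles. Tnnt2, a troponin T of embryonic as well as cardiac muscle, alone gave 6391.0 of the sum of 6637 in tumour 2. In whole tissue, fewer muscle fibres and less myosin RNA per fibre cannot be told apart.

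The embryonic chain was higher in the tumours, and the slow chain and the IIA and IIB fast chains were lower. The call of the embryonic chain was the least secure, holding in 12 of 23 alternatives of processing or samples, against 20 or 21 of 23 for the others. Of the 8 probe sets, 3 were called lower (Myh7, Myh2 and Myh4), where the background share is 7.53% of all probe sets, and 1 was called higher (Myh3), where it is 7.88%. In either direction 15.4% of all probe sets were called. The other 4, the perinatal Myh8 and the 3 probe sets of Myh1, did not pass an adjusted p of 0.05 in limma's test across all probe sets. The differences, given throughout as tumour minus muscle of log2(signal + 16), had a median of -2.93 over the 8 probe sets and of 0.11 over all 22626. In the 4 called probe sets the signals of the groups did not overlap, with tumours below muscles in 3, against 9.7% of all probe sets, and above them in 1, against 10.1%; in either direction the share of all probe sets was 19.8%.

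**Figure D1:**
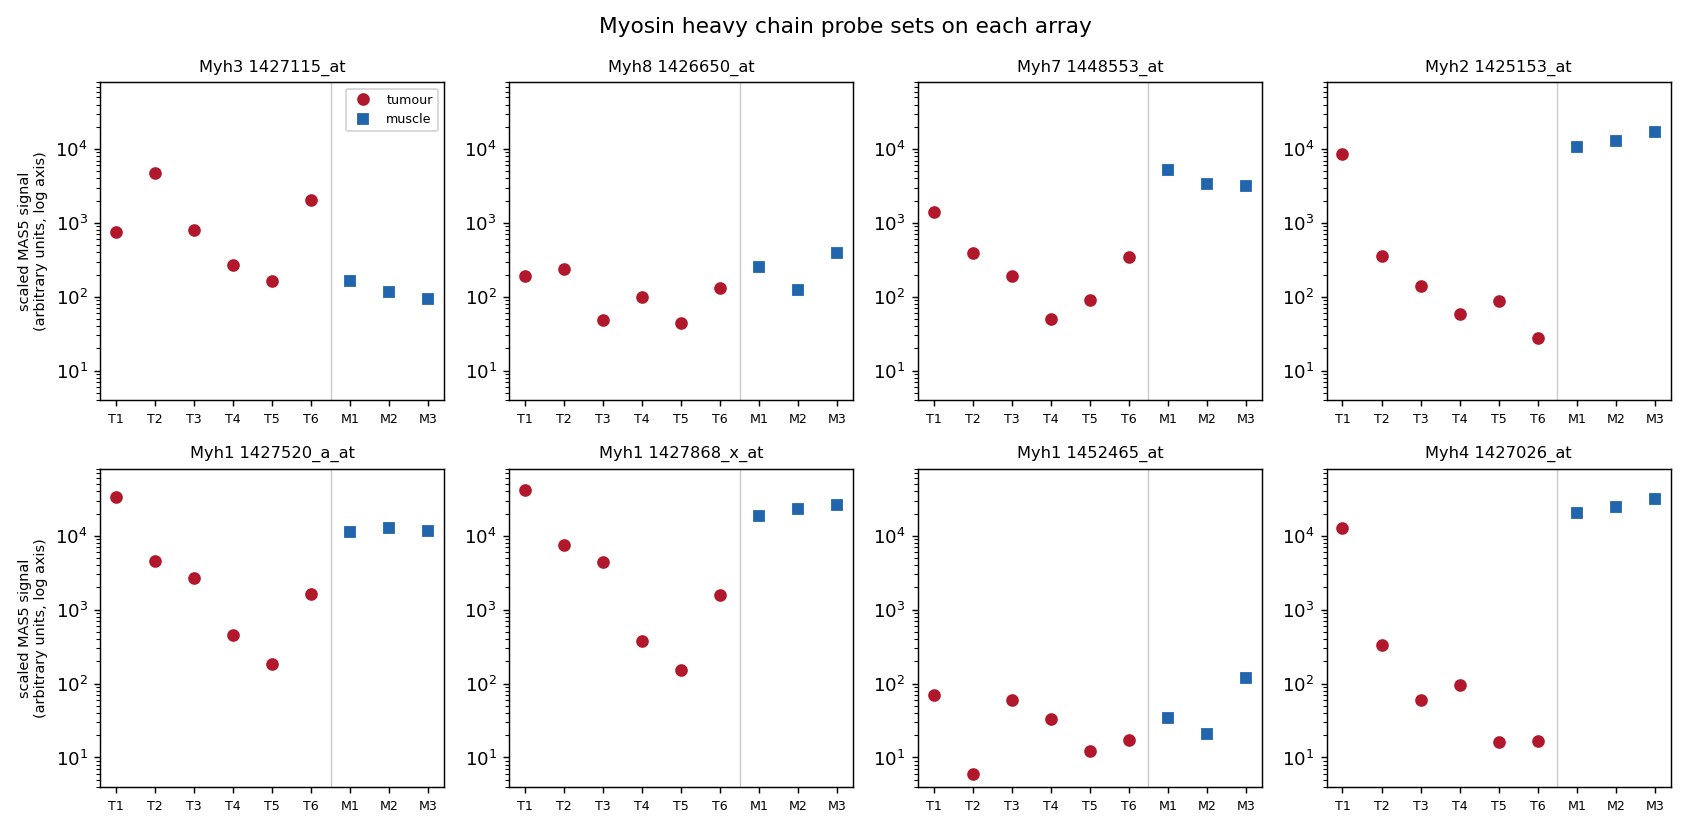
Signal of each of the 8 myosin heavy chain probe sets on every array (log axis, arbitrary units), with the 6 tumours (T1 to T6) left of the 3 muscles (M1 to M3). All tumours lie above all muscles for Myh3 and below them for Myh7, Myh2 and Myh4, and tumour 1 stands above the muscles on 2 probe sets of Myh1.

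Myh3, the embryonic chain, had signals of 755.9, 4680.6, 797.6, 271.6, 166.1 and 2067.2 in tumours 1 to 6, against 165.9, 115.2 and 94.5 in muscles 1 to 3. Tumours 2 and 6 were the highest, and tumour 5 was level with muscle 1, so the groups stayed apart by the narrowest margin. The mean was 1456.5 ± 1718.2 in tumours (SD, n = 6), against 125.2 ± 36.7 in muscles (SD, n = 3). On the log2 scale the difference was 2.58 ± 0.80 (SE), 5.99-fold higher, at an adjusted p of 0.0409 (limma, Benjamini-Hochberg). All 3 muscles and 1 tumour lay below the median of their array on this probe set. This call lay near the threshold and was lost when some single arrays were left out. The adjusted p was 0.0639 without tumour 3, 0.0755 without tumour 6, and 0.0834, 0.127 and 0.158 without muscle 1, 2 or 3. With 1 muscle left out the difference stayed between 2.42 and 2.78, and the calls over all probe sets also fell, from 3488 to between 1700 and 2375. The call of Myh3 was also lost with quantile normalization (0.0654), median centring (0.0946) and an offset of 64 (0.0553), while the difference stayed above 2 in each of 23 alternatives.

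Myh8, the perinatal chain, did not pass the test. Its signals were 189.2, 241.3, 48.0, 98.3, 43.6 and 132.2 in tumours 1 to 6, against 250.9, 123.1 and 387.6 in muscles 1 to 3. The groups overlapped, with 3 tumours above muscle 2, and 5 tumours and 1 muscle lay below the median of their array. The mean was 125.4 ± 78.7 in tumours (SD, n = 6), against 253.9 ± 132.3 in muscles (SD, n = 3). The difference of -1.01 ± 0.56 (SE) on the log2 scale had an adjusted p of 0.282. Tumour 2, the highest in Myh3, was also the highest tumour in Myh8.

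Myh7, the slow chain, had signals of 1384.7, 397.5, 189.2, 50.0, 89.4 and 346.7 in tumours 1 to 6, against 5278.1, 3397.1 and 3193.3 in muscles 1 to 3. Every tumour lay below every muscle, tumour 1 the least so. The mean was 409.6 ± 497.0 in tumours (SD, n = 6), against 3956.2 ± 1149.3 in muscles (SD, n = 3). The difference of -3.90 ± 0.72 (SE), 14.96-fold lower, had an adjusted p of 0.00217. Myh7 was called in 21 of 23 alternatives. The other 2 say little on any of these genes: an exact rank-sum test allows no adjusted p below 0.121 here, and the fit without muscles 1 and 3 leaves 1 muscle, assumed to vary like the tumours.

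Myh2, the IIA chain, had signals of 8638.7, 360.1, 139.5, 57.9, 88.3 and 27.9 in tumours 1 to 6, against 10497.7, 12781.0 and 17172.6 in muscles 1 to 3. Tumour 1 came close to the muscles and the other tumours lay far below. The mean was 1552.1 ± 3473.8 in tumours (SD, n = 6), against 13483.8 ± 3392.5 in muscles (SD, n = 3). Myh2 fell by 5.81 ± 1.19 (SE) on the log2 scale, 56.12-fold, with an adjusted p of 0.00419. Beside the rank-sum test and the fit with 1 muscle, the call was lost in the fit that kept the first 3 tumours by number (adjusted p = 0.0564).

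Myh4, the IIB chain, had the deepest fall of the 8 probe sets. Its signals were 12816.9, 335.3, 60.3, 94.4, 16.4 and 16.6 in tumours 1 to 6, against 20311.3, 24590.5 and 31509.3 in muscles 1 to 3. Tumours 5 and 6 were far below the array medians, where a signal can be background. The mean was 2223.3 ± 5191.1 in tumours (SD, n = 6), against 25470.4 ± 5650.6 in muscles (SD, n = 3). The difference was -7.08 ± 1.40 (SE), 135.5-fold lower, with an adjusted p of 0.00321. Since tumours 5 and 6 lay near the offset of 16, the size of the fold depends on that offset. The difference was -7.48 with an offset of 1 and -6.41 with an offset of 64.

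Myh1, the IIX chain, split the tumours. On the probe set 1427520_a_at the signals were 33436.2, 4626.3, 2696.4, 452.1, 181.4 and 1649.2 in tumours 1 to 6, against 11230.6, 12889.3 and 11751.8 in muscles 1 to 3. Tumour 1 lay above all muscles and the other 5 tumours below all of them. The mean was 7173.6 ± 12968.0 in tumours (SD, n = 6), against 11957.2 ± 848.2 in muscles (SD, n = 3), a difference of -2.58 ± 1.13 (SE) on the log2 scale with an adjusted p of 0.152. On 1427868_x_at the signals were 42064.8, 7618.5, 4448.5, 377.0, 151.9 and 1582.0 in tumours 1 to 6, against 18805.3, 22705.6 and 26293.3 in muscles 1 to 3. The tumours fell on the same sides of the muscles there, and the difference was -3.28 ± 1.26 (SE) with an adjusted p of 0.1003. Without tumour 1 both probe sets were called lower, by -3.39 (adjusted p = 0.0093) and -4.12 (adjusted p = 0.00959), and with only tumours 1, 2 and 3 the differences shrank to -0.67 and -0.99. The probe set 1452465_at lay below the array median on all 9 arrays, with 5.9 to 69.8 in tumours and 20.7 to 119.3 in muscles, and carries little information on the gene (difference -0.54 ± 0.54, adjusted p = 0.6001; without muscle 3 the difference was 0.01). An x_at probe set may also bind transcripts of related genes, and the fast chains are close in sequence, so values of Myh1, Myh2 and Myh4 are less certain than those of isolated genes.

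**Figure D2:**
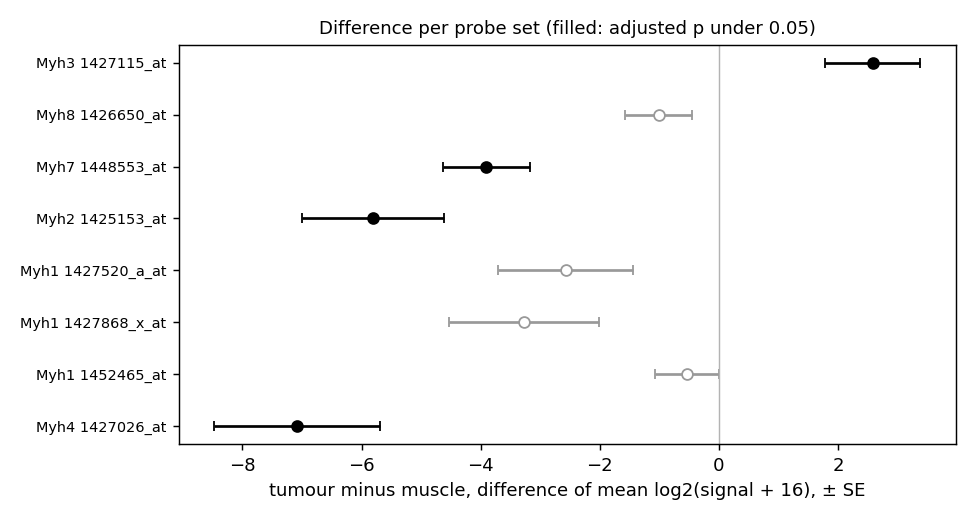
Difference in log2(signal + 16), tumour minus muscle, for each probe set (points), with its SE (bars); filled points passed an adjusted p of 0.05. Myh3 lies above 0 at 2.58, and Myh7, Myh2 and Myh4 lie below it at -3.90, -5.81 and -7.08.

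How far the chains moved relative to each other was measured as the difference between 2 probe sets within each array. There were 84 ways to divide 9 arrays into 6 and 3, so an exact two-sided permutation test cannot give a p below 0.0119, and the 4 pairs were chosen with earlier results known and are no independent evidence. Relative to Myh4, Myh3 was 9.67 higher in tumours than in muscles on the log2 scale (exact permutation p = 0.0119, 0.0159 adjusted over the 4 pairs). Relative to Myh7, Myh3 was 6.49 higher (exact permutation p = 0.0119, adjusted 0.0159). Relative to Myh4, Myh8 was 6.07 higher (exact permutation p = 0.0119, adjusted 0.0159), although Myh8 itself was not called. In these 3 pairs every tumour lay above every muscle, for Myh8 and Myh4 by a narrow margin in tumour 1, and without tumour 2, 3, 4 or 5 that pair no longer passed (adjusted p = 0.0714). For the 2 pairs with Myh3 this separation was fixed in advance, since the groups did not overlap on Myh3, Myh4 or Myh7. The tests of those 2 pairs add no support to the single probe sets, and only the sizes are further description. The pair of Myh8 and Myh4 has another limit. Myh8 was dim in muscles, at 123.1 to 387.6, against 20311.3 to 31509.3 for Myh4. With the offset added to every signal, Myh8 had less room to fall than Myh4 fell. The mean of this pair would be higher in tumours even with Myh8 lost, so its test cannot tell whether Myh8 was kept. Relative to Myh4, Myh7 was 3.18 higher, with 5 of 6 tumours above all muscles and an adjusted p of 0.0714, or 0.0357 without tumour 1.

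On 6 of the 8 probe sets the tumours differed from each other far more than the muscles did, with an SD of log2(signal + 16) between 1.57 (Myh7) and 3.26 (Myh4) among tumours and between 0.10 (Myh1, 1427520_a_at) and 0.39 (Myh7) among muscles. The exceptions were Myh8, with SDs of 0.87 among tumours and 0.77 among muscles, and the dim Myh1 probe set 1452465_at, with 0.80 and 0.98. Over all probe sets the median SD was 0.71 among tumours and 0.38 among muscles. The highest over the lowest signal of Myh3 was 28.18 among tumours and 1.755 among muscles; for Myh4 no such ratio is given, since its lowest tumour signals can be background. Ranked by the SD of log2 signals over the tumours among all 22626 probe sets, Myh4 stood at place 6, Myh1 (1427868_x_at) at 12, Myh2 at 20, Myh1 (1427520_a_at) at 32 Myh3 at 289, Myh7 at 498, Myh8 at 7178 and Myh1 (1452465_at) at 8900. Tumour 1 had the most of the adult chains: as a percentage of the muscle mean it had 50.3% of Myh4, 64.1% of Myh2, 35% of Myh7 and 280% or 186% of Myh1, on 1427520_a_at and 1427868_x_at. The other 5 tumours had at most 1.32% of Myh4, 2.67% of Myh2 and 10.1% of Myh7. They had more of Myh1, up to 38.7% and 33.7% on the same 2 probe sets, both in tumour 2. The summed signal of the 12 adult fibre genes was 32.4% of the muscle mean in tumour 1 and 9.3%, 2.42%, 1.82%, 1.06% and 6.73% in tumours 2 to 6, and its part in these differences was not tested. Of 8 macrophage genes 6 were called higher, against 8.4% of all genes, with sums of 7815 to 30744 in tumours and 2577 to 3532 in muscles. Itgam of that list went the other way and was not called (-1.01). Csf1r alone gave 26580.1 of the sum of 30744 in tumour 1, and Ptprc was lowest in that tumour, at 151.7. Of 3 adipocyte genes 3 were called lower, of 5 endothelial genes 1 and of 7 fibroblast genes 1, against 8.77% of all genes, and 0 of these were called higher.

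**Figure D3:**
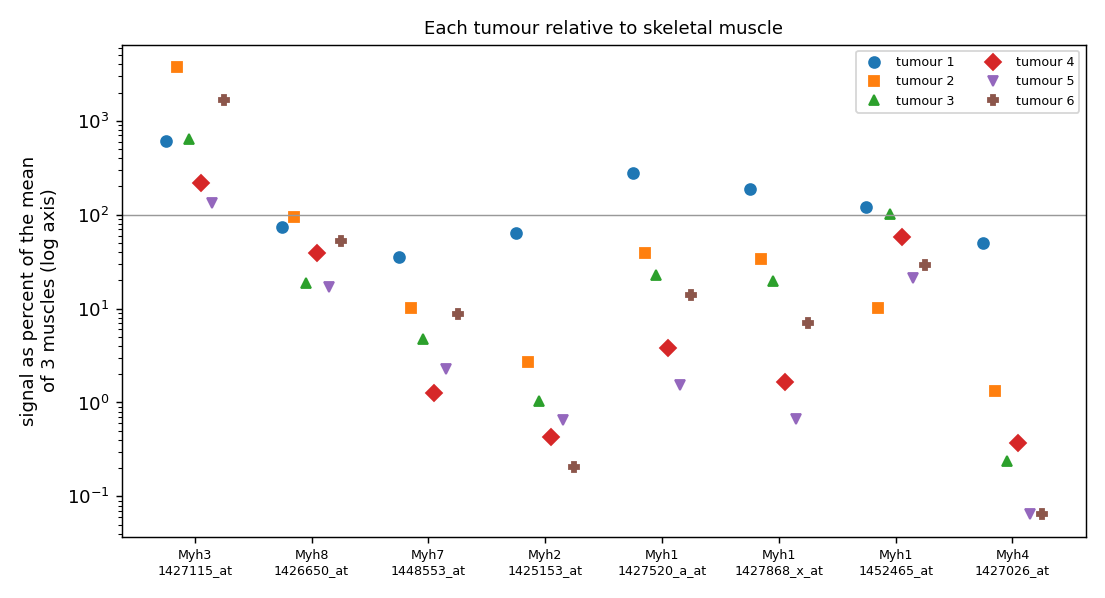
Signal of each tumour as a percentage of the muscle mean, for each probe set (log axis; 100 marks the muscle mean). Tumour 1 stays between 35% and 280% on the adult chains, and all 6 tumours lie above 100% for Myh3.

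Among the tumours, Myh3 was highest in tumour 2 and the adult chains were highest in tumour 1. Tumour 2 also had more of Myh4, Myh2 and Myh7 than tumours 3 to 6, with Myh2 at 2.67% and Myh7 at 10.05% of the muscle mean. The same held for the 2 brighter probe sets of Myh1, at 38.7% and 33.7% in tumour 2. Myh3 was at 3738% of the muscle mean in tumour 2 and 1651% in tumour 6, where Myh4 was at 1.32% and 0.0651%. In tumour 1, which had the most Myh4, Myh3 was at 604%. Tumour 5 was lowest in Myh3, at 133%, and in both brighter probe sets of Myh1, at 1.52% and 0.672%. Tumour 4 was lowest in Myh7, at 1.26%. With 6 tumours of which 1 stands apart, no correlation is given.

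Genes whose profile over the 9 arrays lay nearest to that of each chain were found by the root mean square difference of log2 values. Each profile was centred on its own mean. The search covered 10357 probe sets of 1 symbol outside the 6 genes whose mean log2 value was above the median of all. They are a description, and the arrays' group difference enters each likeness. Nearest to Myh3 were Tnnt2, the cardiac and embryonic troponin T (0.288), Dclk1, a doublecortin-like kinase (0.68), and Myl4, the embryonic and atrial light chain (0.683). Tnnt2 had signals of 898.0, 6391.0, 768.0, 365.1, 141.1 and 1778.4 in tumours 1 to 6, against 194.8, 166.0 and 151.4 in muscles, and was not called (2.26, adjusted p = 0.0839). Like Myh3, Tnnt2 was highest in tumours 2 and 6 and lowest in tumour 5. Nearest to Myh4 and Myh2 were Trdn, the triadin of the calcium release unit (0.786 and 0.692), and Ckm, the muscle creatine kinase (1.24 and 0.878), and after them Sh3bgr for Myh4 (1.38) and Pvalb, the calcium buffer parvalbumin, for Myh2 (0.959). Nearest to Myh1 (1427868_x_at) were the splicing regulator Rbfox1 (0.846), the fast troponin I Tnni2 (0.979) and the skeletal actin Acta1 (1.05). Nearest to Myh7 were Actn2, an alpha-actinin of the Z-disc (0.444), Macrod1 (0.543) and Tnni2 (0.554). Nearest to Myh8 were Dst (0.375), Rtn4 (0.434) and Kif5b (0.439), which are not specific to muscle. The mean log2 value of Myh8 itself lay below the median, so genes as dim as Myh8 were not searched.

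**Figure D4:**
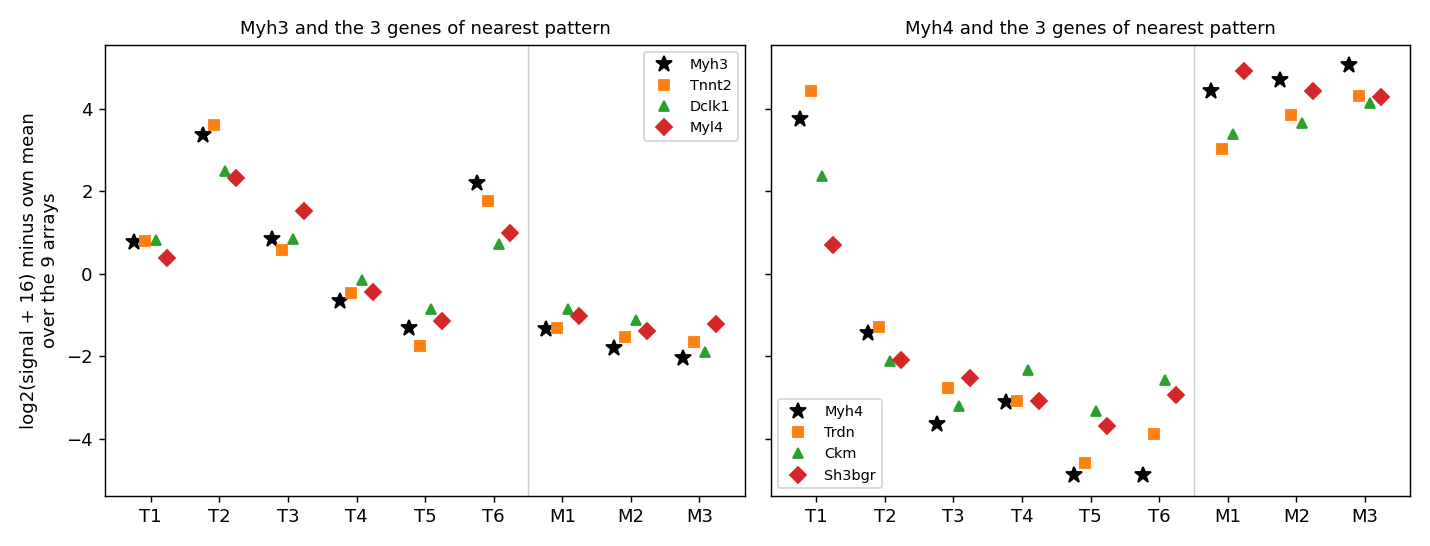
Centred log2(signal + 16) of Myh3 (left) and Myh4 (right) and of the 3 genes nearest to each, on tumours T1 to T6 and muscles M1 to M3. Myh3 and Tnnt2 are highest in tumours 2 and 6, and among the tumours Myh4 and its 3 neighbours are highest in tumour 1.

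Genes of the proteins that build the thick filament with myosin were lower in the tumours where they were called. Each gene outside the 6 is given by its brightest probe set, and among 12393 genes taken so, 8.77% were called lower and 8.4% higher. Of 7 light chains, the small subunits at the neck of the motor, 4 were called lower and 0 higher, and the median difference was -2.96. Myl3, the slow and ventricular light chain, was at 152.9 ± 104.1 in tumours (SD, n = 6), against 1356.2 ± 265.1 in muscles (SD, n = 3; difference -3.21, adjusted p = 0.000442). The fast light chains Mylpf (-4.31, adjusted p = 0.0051) and Myl1 (-4.66, adjusted p = 0.00692) were also lower, and the embryonic and atrial Myl4 had a difference of 1.81 and did not pass (adjusted p = 0.0582). Of 6 thick filament partners 4 were called lower and 0 higher, with a median of -3.92. The M-band proteins Myom1 (-5.45, adjusted p = 2.68e-05) and Myom2 (-6.26, adjusted p = 8.72e-05) and the myosin-binding protein Mybph (-4.64, adjusted p = 0.00671) were the clearest.

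Of 3 genes of myosin folding and assembly, the methyltransferase Smyd1, which is needed for thick filament assembly in zebrafish, was lower (-2.60, adjusted p = 0.00272, with 1 of its 3 probe sets called). Hsp90aa1, the chaperone that folds the motor domain with UNC45, was higher (2.30, adjusted p = 0.00042), on all 3 of its probe sets. Unc45a, the general UNC45, did not pass (-0.19, adjusted p = 0.895). Trim54, a RING finger ligase of striated muscle, was lower (-3.45, adjusted p = 0.00331), and it was the only gene of its list of 3 on the array.

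Of 15 thin filament genes 8 were called lower and 1 higher, with a median of -3.10. Those with the lowest adjusted p included the pointed-end caps Tmod1 (-3.88, adjusted p = 5.37e-05) and Tmod4 (-5.84, adjusted p = 0.000184). The tropomyosins Tpm1 (-3.36, adjusted p = 0.000328) and Tpm3 (1.86, adjusted p = 0.0027) were called on their brightest probe sets, but each also had probe sets called the other way, 1 of 3 for Tpm1 and 2 of 5 for Tpm3.

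Of 17 regulators of fibre type and of myosin isoforms, 8 were called lower and 0 higher, with a median of -1.31. Sox6, a repressor of slow fibre genes that is high in fast fibres, had signals of 41.2, 74.5, 9.1, 12.1, 37.5 and 43.5 in tumours, against 3409.7, 3699.2 and 4016.4 in muscles (-6.29, adjusted p = 4.84e-06). Sox6 was low in tumour 1 as well, the tumour with the most of the fast chains. Myf6, the myogenic factor of mature fibres (-3.99, adjusted p = 0.000156), and Mef2d, a MEF2 factor (-1.97, adjusted p = 0.00143), were also lower. Myod1 and Myog, the factors of muscle commitment and differentiation, did not pass, with differences of 0.34 (adjusted p = 0.712) and 0.36 (adjusted p = 0.716).

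Among heavy chains outside the 6, Myh9, a non-muscle myosin of most cells, was called higher on all 4 of its probe sets, with differences of 1.42 to 2.32, and on the brightest it averaged 5432.1 ± 3260.4 in tumours (SD, n = 6), against 1428.9 ± 442.5 in muscles (SD, n = 3; adjusted p = 0.02). Myh14, another non-muscle chain, did not pass (-1.08, adjusted p = 0.437), nor did the smooth muscle chain Myh11 (-0.24, adjusted p = 0.855). The brighter of the 2 probe sets of Myh6, the alpha cardiac chain, had a difference of -0.59 (adjusted p = 0.646).

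**Figure D5:**
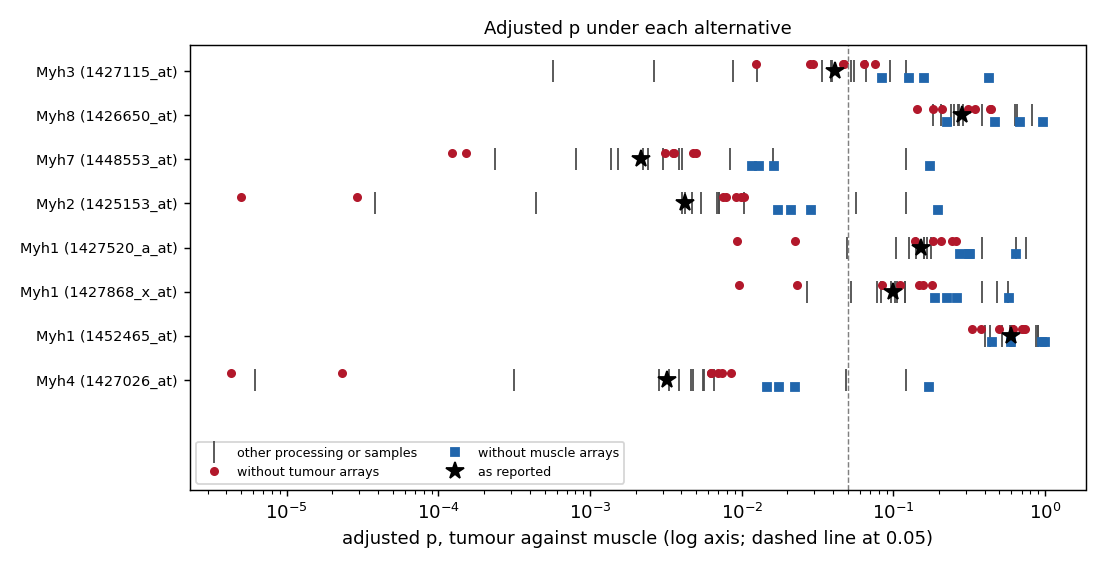
Adjusted p of each probe set as reported (star) and under each alternative processing or left-out array (log axis; the dashed line is at 0.05). Myh7, Myh2 and Myh4 stay left of the line in 21, 20 and 21 of 23 alternatives, Myh3 in 12 of 23, and Myh8 in 0 of 22; the rank-sum test, at 0.121 or above, cannot reach it.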

How the data were processed

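Biotin-labelled total RNA was hybridised to Affymetrix arrays, per the labels' protocols. The authors deposited linear MAS5 intensities, 1 for each probe set on each array; the submitters' processing notes name MAS5 and no version. The scaling target and scan dates are not stated there, and detection calls were not used here. Of the probe sets, 64 controls were left out, and symbols came from the platform annotation (20380 probe sets with 1 symbol, 691 with several and 1555 with none). All arrays were multiplied to the median trimmed mean (2% left out at each end), since 2 arrays were off the common scale, and log2(signal + 16) was fitted on all 22626 probe sets with limma 3.58.1 in R 4.3.3 (lmFit, eBayes with an intensity trend, 6 tumours against 3 muscles). Benjamini-Hochberg adjustment ran over all probe sets, and an adjusted p under 0.05 was a call. The fit was tested on simulated data. Sequences were read from RefSeq promoter windows, and summaries and exact permutation tests used scipy 1.17.1, pandas 2.3.3 and numpy 2.4.6 in Python 3.11.15.

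The 6 genes were all named. From each list of further genes, each given by its brightest probe set, up to 3 called lower and 3 called higher with the lowest adjusted p were named, with all genes of the heavy chain lists; Myl4, Tnnt2, Unc45a, Myod1 and Myog were named after their values were seen or from the likeness rule. The 6 genes, the lists and the 4 pairs were chosen with earlier results of these data known.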

Additional observations from a re-analysis of the deposited data

Results flagged for a closer look

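The spread over the 6 tumours was examined for a sample far from the others on the linear and the log2 scale of the 8 probe sets, and 5 of these 16 cases held one, each time tumour 1 as the highest. The gap to the next tumour as a share of the range of the 6 was 0.74 for Myh7, 0.961 for Myh2, 0.866 for Myh1 (1427520_a_at), 0.822 for Myh1 (1427868_x_at) and 0.975 for Myh4, where Dixon's critical value for 6 samples is 0.625. Chance exceeds it in about 1 of 20 groups of normally distributed values. That rate need not hold for linear signals spread as widely as these, so the flags only describe tumour 1. The adult chains of 1 tumour are also not independent of each other. The gaps are on the linear scale, and 0 of the 8 probe sets exceeded the value on the log2 scale.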

How the results depend on the processing

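Of 244 tested values over up to 23 alternatives, 208 kept their direction and their side of the threshold, and the cause of the other changes was not tested unless given here. The count of all called probe sets, 3488 as reported, was 2200 with 1 probe set per gene (fewer features), 0 with an exact rank-sum test (5814 at an unadjusted p under 0.05, since 84 divisions of the arrays allow no p below 0.0238 and no adjusted p below 0.121), 361 without muscles 1 and 3 (which leaves 1 muscle, assumed to vary like the tumours) and 1700 to 4369 when 1 array was left out. Signals as deposited gave 4496 calls, 87% of them higher in tumours against 51.1%, and moved the median of all differences to 0.754. For the myosin heavy chains called higher, the count was 0 instead of 1 with quantile normalization, median centring, an offset of 64, no intensity trend, the rank-sum test and without muscles 1 and 3, and 0 to 1 when 1 array was left out. The count called lower, 3 as reported, was 5 with 1 weight per group and without tumours 1 and 4, 0 with the rank-sum test and without muscles 1 and 3, and 3 to 5 when 1 array was left out. Myh3 had differences of 2.47 (quantile; adjusted p = 0.0654), 2.48 (median centring; 0.0946), 2.28 (offset of 64; 0.0553), 2.58 (no trend; 0.0527), 2.58 (rank-sum; 0.121) and 2.66 (without muscles 1 and 3; 0.424), and 2.08 to 3.02 with 1 array left out. Under the rank-sum test Myh7, Myh2 and Myh4 kept -3.90, -5.81 and -7.08 at an adjusted p of 0.121, and without muscles 1 and 3 they had -3.72 (0.174), -5.76 (0.196) and -7.05 (0.172). With 1 array left out they ranged from -4.39 to -3.51, -6.85 to -5.33 and -8.31 to -6.58. The brighter probe sets of Myh1 passed with 1 weight per group, at -2.58 (0.0497) and -3.28 (0.027), and without tumours 1 and 4, at -3.07 (0.0224) and -3.69 (0.023), and ranged from -3.39 to -1.91 and -4.12 to -2.52 with 1 array left out. The dim Myh1 probe set 1452465_at turned to 0.10 with signals as deposited, 0.0149 without muscle 3 and 0.24 without muscles 1 and 3, and ranged from -0.93 to 0.0149 with 1 array left out. Myh8 ranged from -1.42 to -0.65 with 1 array left out, was -0.21 with signals as deposited and -0.18 without muscles 1 and 3, and was called in 0 of 22 alternatives. The difference between Myh7 and Myh4 was 3.92 without tumour 1 and 4.41 without tumours 1 and 4, and 2.58 to 3.92 with 1 array left out; that between Myh8 and Myh4 was 5.52 to 7.15, between Myh3 and Myh4 8.9 to 10.9 and between Myh3 and Myh7 6.12 to 6.99. Without muscles 1 and 3 these last 3 were 6.87, 9.71 and 6.38 (adjusted p = 0.19), a design whose smallest p is 0.143. Tumours 1 to 3 and muscles 1 to 3 carry the same numbers, but the deviations of same-numbered samples correlated at 0.21, 0.19 and -0.02, so the numbers were not taken as pairs. With the replicate block those 6 arrays gave 2432 calls, against 1799 with no replicate block, and Myh2 was -4.05 at an adjusted p of 0.0103 with the block, against 0.0564 with no replicate block; the brighter probe sets of Myh1 were -0.67 and -0.99 in both fits. Signals near background limit the lowest values, and no detection calls were used.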

Other observations

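The probe set of Myhas, the antisense RNA gene between Myh1 and Myh4, had signals of 3113.8, 160.5, 618.6, 223.8, 146.4 and 295.5 in tumours 1 to 6, against 431.3, 818.3 and 889.1 in muscles 1 to 3. Tumour 1 lay above all muscles and 4 tumours lay below all of them, and the difference of -0.79 on the log2 scale did not pass the test (adjusted p = 0.579). Tumour 1 was likewise above the muscles in Myh1.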
